A study of Mus musculus with 15 samples.

Results

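The 5 leukemia lines with the most mRNA of the CD8 coreceptor were compared with the 5 lines with the least, out of 15 mouse T cell leukemia lines profiled by RNA-sequencing. All 15 lines were ranked by a CD8 score, which is the mean of log2(CPM + 1) of *Cd8a* and *Cd8b1*, where CPM is the reads of a gene scaled to a fixed total of reads assigned to genes per line. The sides were thus chosen by the measured levels of these 2 genes. The 5 highest lines are called CD8-high, the 5 lowest CD8-low, and the other 5 the middle lines. The lines were grown from thymic cells of moribund FVB/NJ mice, 1 library per line and without treatment. Every line is labelled E2a-/-, without *E2a*, whose E proteins drive early T cell development. The 8 DKO lines also carry floxed *Lef1* alleles (labelled E2a-/-LefF/F LckCre+), with Cre driven by the *Lck* promoter and therefore made in T-lineage cells only, and the labels of the 7 E2a-/- lines name no *Lef1* allele. The CD8-high side holds 2 DKO and 3 E2a-/- lines, the CD8-low side 1 DKO and 4 E2a-/- lines, and the 5 middle lines are all DKO.

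CD8 is a surface coreceptor built from a CD8α and a CD8β chain, encoded by the neighbouring genes *Cd8a* and *Cd8b1*, and it helps the T cell receptor bind peptide on MHC class I. In the thymus, T cell precursors first lack both coreceptors (double-negative), then carry CD4 and CD8 together (double-positive), and finally keep one of them. RUNX factors act at the coreceptor genes, silencing *Cd4* and sustaining *Cd8a* and *Cd8b1* in CD8 cells, whereas ThPOK, the product of *Zbtb7b*, directs cells to the CD4 fate. Thymic leukemias in mice are often arrested between the double-negative and double-positive stages.

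The *Cd8a* promoter is printed because the level of this gene placed the lines, and because all of them are labelled as without *E2a*, whose proteins bind E-boxes. The sequence is from RefSeq, GRCm38.p6 chr6:71373177-71373476 on the + strand, 250 bases before to 50 bases after the gene start, with matches to the E-box CANNTG in capitals.
*Cd8a* promoter: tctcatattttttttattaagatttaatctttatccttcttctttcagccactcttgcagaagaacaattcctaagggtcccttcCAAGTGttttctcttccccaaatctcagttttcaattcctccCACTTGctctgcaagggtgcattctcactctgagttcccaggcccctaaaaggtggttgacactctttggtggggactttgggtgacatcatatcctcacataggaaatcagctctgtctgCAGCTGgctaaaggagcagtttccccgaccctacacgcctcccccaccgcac
The letters CANNTG occurred 3 times, starting at positions -165, -123 and -2 relative to the gene start, and 72.3% of 32851 mouse promoters of this length hold at least 1 match. The RUNX letters TGTGGT and the TCF/LEF letters CTTTGA, searched on both strands, had 0 matches in this window, and 16.8% and 16.0% of all promoters hold them. A match is a run of letters and not a measured binding site.

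The ranking spread the 15 lines over scores from 7.46 to 0.299. In CD8-high lines *Cd8a* was at 299 in DKOTu3, 290.1 in SKO115.2, 272 in DKO102.4, 196 in SKO137.1 and 144 in SKO163.5 CPM. In CD8-low lines it was at 2.42 in SKO186.5, 15.3 in SKO132, 0.828 in SKO156.6, 3.30 in DKO79.9 and 0.230 in SKO95 CPM. These values chose the sides and are given as a description with no test: every CD8-high line lay above every CD8-low line, as the selection favours. In CD8-high lines *Cd8b1* was at 103 in DKOTu3, 89.3 in SKO115.2, 80.8 in DKO102.4, 67.0 in SKO137.1 and 52.3 in SKO163.5 CPM. In CD8-low lines it was at 17.1 in SKO186.5, 1.10 in SKO132, 13.8 in SKO156.6, 4.95 in DKO79.9 and 0.230 in SKO95 CPM. The means of *Cd8a* were 240.2 ± 67.6 CPM (SD, n = 5) and 4.41 ± 6.20 CPM (SD, n = 5), and those of *Cd8b1* were 78.4 ± 19.5 and 7.43 ± 7.61 CPM. On the log2(CPM + 1) scale the sides differed by 6.05 for *Cd8a* and by 3.87 for *Cd8b1*. On the high side the last line inside was SKO163.5 with a score of 6.46 and the first outside was DKO548 with 5.26. On the low side the last inside was SKO186.5 with 2.97 and the first outside was DKO713 with 3.35, so the lower limit falls in a continuous run of lines. The middle lines had 72.0 in DKO548, 35.8 in DKO170.2, 54.3 in DKO241, 61.3 in DKO192.3 and 8.26 in DKO713 CPM of *Cd8a*.

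**Figure D1:**
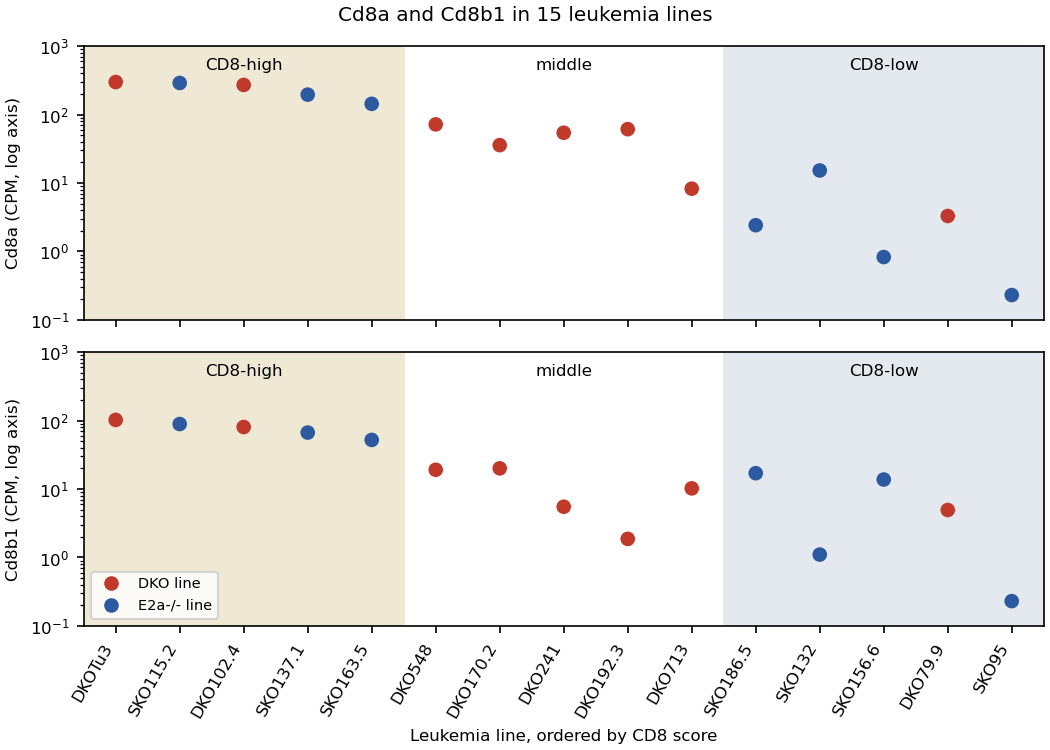
*Cd8a* (upper) and *Cd8b1* (lower) in CPM on log axes for the 15 lines, ordered by CD8 score and coloured by genotype, 1 point per library. The 5 CD8-high lines lie between 144 and 299 CPM of *Cd8a*, and of the CD8-low lines SKO186.5, SKO156.6 and DKO79.9 have more *Cd8b1* than *Cd8a* CPM, SKO132 has less, and SKO95 has 5 reads of each.

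The ratio of the 2 chains spread more widely outside the CD8-high lines than among them. It is made of the 2 values that ranked the lines, so the selection bears on this contrast, which is a description only. In the 5 CD8-high lines the ratio of *Cd8a* to *Cd8b1* CPM was between 2.75 and 3.36. Among CD8-low lines the ratio was 0.142 in SKO186.5 and 0.06 in SKO156.6, which had more *Cd8b1* than *Cd8a*, and 13.85 in SKO132, which had 277 reads of *Cd8a* and 20 of *Cd8b1*. SKO156.6 had 12 reads of *Cd8a* and 200 of *Cd8b1*. The ratio was 0.667 in DKO79.9, from 16 and 24 reads. In the middle lines it was 32.8 in DKO192.3, 9.84 in DKO241, 3.76 in DKO548, 1.78 in DKO170.2 and 0.807 in DKO713. SKO95 had 5 reads of each gene, so its ratio of 1 carries no information. Ratios compare lines only, since the genes differ in length. Across the 15 lines the Spearman correlation of the 2 genes was 0.782 and the Pearson correlation of their log2(CPM + 1) values 0.698, a description of the lines that the ranking used. Ranked by *Cd8a* alone or by *Cd8b1* alone, the 5 highest lines stayed the same 5. The 5 lowest by *Cd8a* took in DKO713 in place of SKO132, and the 5 lowest by *Cd8b1* took in DKO192.3 and DKO241 in place of SKO186.5 and SKO156.6.

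*Cd4* overlapped between the sides. It was at 4.31 in DKOTu3, 0.570 in SKO115.2, 14.8 in DKO102.4, 39.8 in SKO137.1 and 5.38 in SKO163.5 CPM in CD8-high lines and at 44.2 in SKO186.5, 1.16 in SKO132, 16.2 in SKO156.6, 0.412 in DKO79.9 and 1.75 in SKO95 CPM in CD8-low lines. Both sides thus held lines with more *Cd4* and lines with very little, and the log2 fold change, CD8-high minus CD8-low and adjusted for genotype, was 0.65 (SE 1.18, unadjusted p = 0.596, adjusted p = 0.930).

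Between 4847970 (DKO79.9) and 21681586 (SKO95) reads per line fell on the 12545 listed genes, so that 1 read is worth 0.206 to 0.0461 CPM. All 10 genes of the T-lineage list were listed and summed to 5869.8 to 7275 CPM in CD8-high and 4347 to 8454 CPM in CD8-low lines. *Cd79a*, *Csf1r*, *Ncr1* and the erythroid globin genes were not listed. The listed members summed to 22.5 to 155 CPM in CD8-high and 23.7 to 263 CPM in CD8-low lines for B cell markers (2 of 8), to 14.4 to 18.9 and 8.99 to 15.7 CPM for myeloid markers (3 of 10), to 36.9 to 63.8 and 8.71 to 320 CPM for NK and innate lymphoid markers (4 of 8), and to 60.5 to 399 and 83.3 to 548 CPM for stromal and epithelial markers (4 of 8). Their part in the results was not tested. The library labelled SKO132, on the CD8-low side, had 59.0 CPM of *Lef1*, below all 8 DKO lines (103 to 210.2 CPM) and below the other E2a-/- lines (668 to 1558 CPM). Its label names no *Lef1* allele, and whether the label is correct was not tested. SKO132 also had 31.3 CPM of *Notch1*, against 1091 to 1639 CPM in the other CD8-low lines. The paper reports that blocking Notch signalling lowered LEF1 protein in E2a-/- leukemia cells. Whether low *Notch1* accounts for the *Lef1* level of SKO132 was not tested. SKO132 was kept in the group its label gives, so the genotype covariate and the values of E2a-/- lines alone include it unless stated. Without SKO132, limma called 0 genes and 818 had an unadjusted p under 0.05. *Tcf3*, the gene of the *E2a* proteins, was still counted, at 142 to 243 CPM in CD8-high and 151 to 218 CPM in CD8-low lines, and 1 value per gene does not tell deleted from retained exons. SKO115.2 and SKO163.5 on the high side, and SKO156.6 and SKO186.5 on the low side, were the closest pairs of lines (Spearman correlations 0.969 and 0.987 across genes). The labels name them as separate lines, and whether the lines of a pair come from 1 leukemia is not given. With each pair averaged as 1 line, an alternative chosen after seeing the data, limma called 0 genes and 439 had an unadjusted p under 0.05, against 768 with all 10 lines. Pooled libraries give 1 value per line, so fewer cells with a gene and less RNA per cell cannot be told apart.

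The question asked of the other genes was which of them differed between the sides. limma was fitted to log2(CPM + 1) of the 10 lines with genotype as a covariate, with *Cd8a* and *Cd8b1* left out and p-values adjusted by the Benjamini-Hochberg method over 12543 genes. None passed: 0 genes had an adjusted p under 0.05, a share of 0%, and the smallest adjusted p was 0.116, shared by *Igsf3* and *Cpa3*. At an unadjusted p under 0.05 there were 768 genes, 358 with more mRNA in CD8-high lines (2.85%) and 410 with less (3.27%). In 64 genes (0.510%) every CD8-high line lay above every CD8-low line, and in 69 (0.550%) every one lay below. On reads recovered from the CPM values, edgeR's quasi-likelihood test also called 0 genes, with 796 at an unadjusted p under 0.05. DESeq2 called 169, 78 higher and 91 lower. On simulated data of this size with 200 changed genes it made 66 false calls, against 10 for limma and 6 for edgeR. It recovered 87% of the 4-fold changes, against 78.5% and 78%. The simulated counts were drawn independently for each line, with no genotype effect, outlying line or close pair of lines. False calls in the real data may therefore differ. The genes below are given by their values, and none is a call of the limma test.

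The gene with the smallest p in the upward direction was *Igsf3*, a membrane protein of the immunoglobulin superfamily (ENSMUSG00000042035, which the table lists on chromosome 3 at 101181048 to 101266983). It was at 84.8 in DKOTu3, 28.9 in SKO115.2, 50.3 in DKO102.4, 23.1 in SKO137.1 and 33.8 in SKO163.5 CPM in CD8-high lines and at 6.59 in SKO186.5, 9.93 in SKO132, 5.31 in SKO156.6, 10.1 in DKO79.9 and 5.11 in SKO95 CPM in CD8-low lines. The sides did not overlap, but all 5 middle lines lay with the high side, at 22.6 to 87.3 CPM. The log2 fold change was 2.13 (SE 0.25, unadjusted p = 1.10e-05, adjusted p = 0.116). The E2a-/- lines alone, 3 against 4, gave 1.96 (unadjusted p = 2.04e-04), and 2.14 (unadjusted p = 9.95e-05) with SKO132 left out, which was chosen after seeing the data. The 8 DKO lines alone, fitted on the CD8 score and scaled to the gap between the sides, gave 1.30 (unadjusted p = 0.160).

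*Cpa3*, a carboxypeptidase known from mast cell granules (ENSMUSG00000001865, which the table lists on chromosome 3 at 20115516 to 20142080), had the smallest p in the other direction. It was at 4.94 in DKOTu3, 4.09 in SKO115.2, 2.79 in DKO102.4, 0.249 in SKO137.1 and 1.18 in SKO163.5 CPM in CD8-high lines and at 37.8 in SKO186.5, 69.2 in SKO132, 17.4 in SKO156.6, 50.7 in DKO79.9 and 58.8 in SKO95 CPM in CD8-low lines. Every CD8-low line lay above every CD8-high line, and the middle lines lay at 0.531 to 8.68 CPM, near the high side. The log2 fold change was -3.93 (SE 0.49, unadjusted p = 1.84e-05, adjusted p = 0.116), -4.11 in the E2a-/- lines alone (unadjusted p = 3.23e-04), -3.86 with SKO132 also left out (unadjusted p = 0.00125) and -1.56 in the DKO lines alone (unadjusted p = 0.274). The mast cell and progenitor receptor gene *Kit* overlapped, at 0.124 to 29.8 CPM in CD8-high and 0 to 173 CPM in CD8-low lines.

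The other 5 genes that filled the list in the upward direction were *Grasp*, *Ace*, *Il1rap*, *Adamts20* and *Rps6kl1*, each with an adjusted p of 0.280 and with every CD8-high line above every CD8-low line. *Ace*, the angiotensin-converting enzyme, was at 20.2 to 103 CPM against 0 to 7.97 CPM, with a log2 fold change of 4.13 (SE 0.66). *Adamts20*, a secreted metalloprotease, was at 3.47 to 42.4 CPM against 0 to 0.824 CPM (3.47, SE 0.57). *Adamts20* and the kinase-like gene *Rps6kl1* were also low in all 5 middle lines, at 0 to 1.40 and 0.0966 to 4.66 CPM, whereas *Ace* and *Il1rap*, a subunit of the interleukin-1 and interleukin-33 receptors, spread over both levels there. *Il1rap* was at 3.86 to 10.1 CPM against 0 to 1.49 CPM (2.18), *Rps6kl1* at 19.5 to 65.5 against 3.64 to 10.7 CPM (2.28), and the scaffold protein gene *Grasp* at 4.04 to 8.73 against 0.110 to 1.52 CPM (2.002).

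The other 5 in the downward direction were *Lmcd1*, *Acy3*, *Tnfsf11*, *Gstp1* and *S1pr2*, with adjusted p-values of 0.280 to 0.450. *Lmcd1*, a LIM-domain transcriptional cofactor, separated the sides within each labelled genotype but not across them. It was at 0.155, 0 and 0.269 CPM in the E2a-/- CD8-high lines and at 7.28 to 33.0 CPM in the E2a-/- CD8-low lines, but at 14.9 and 11.5 CPM in the DKO CD8-high lines. *Tnfsf11*, which encodes the cytokine RANKL, was at 1.17 to 7.09 CPM against 6.39 to 37.1 CPM, with DKO79.9 inside the range of the high side. *Acy3*, an aminoacylase, *Gstp1*, a glutathione transferase, and *S1pr2*, a receptor for sphingosine 1-phosphate, did not overlap. *S1pr2* was at 10.6 to 20.3 CPM in CD8-high and 21.7 to 49.0 CPM in CD8-low lines, a log2 fold change of -1.28. For all 12 genes the direction was the same under each of the 32 other settings tried. These genes were chosen by their p in the same lines, and most settings refit those lines. Keeping the direction was therefore favoured by the choice and is no separate support.

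**Figure D2:**
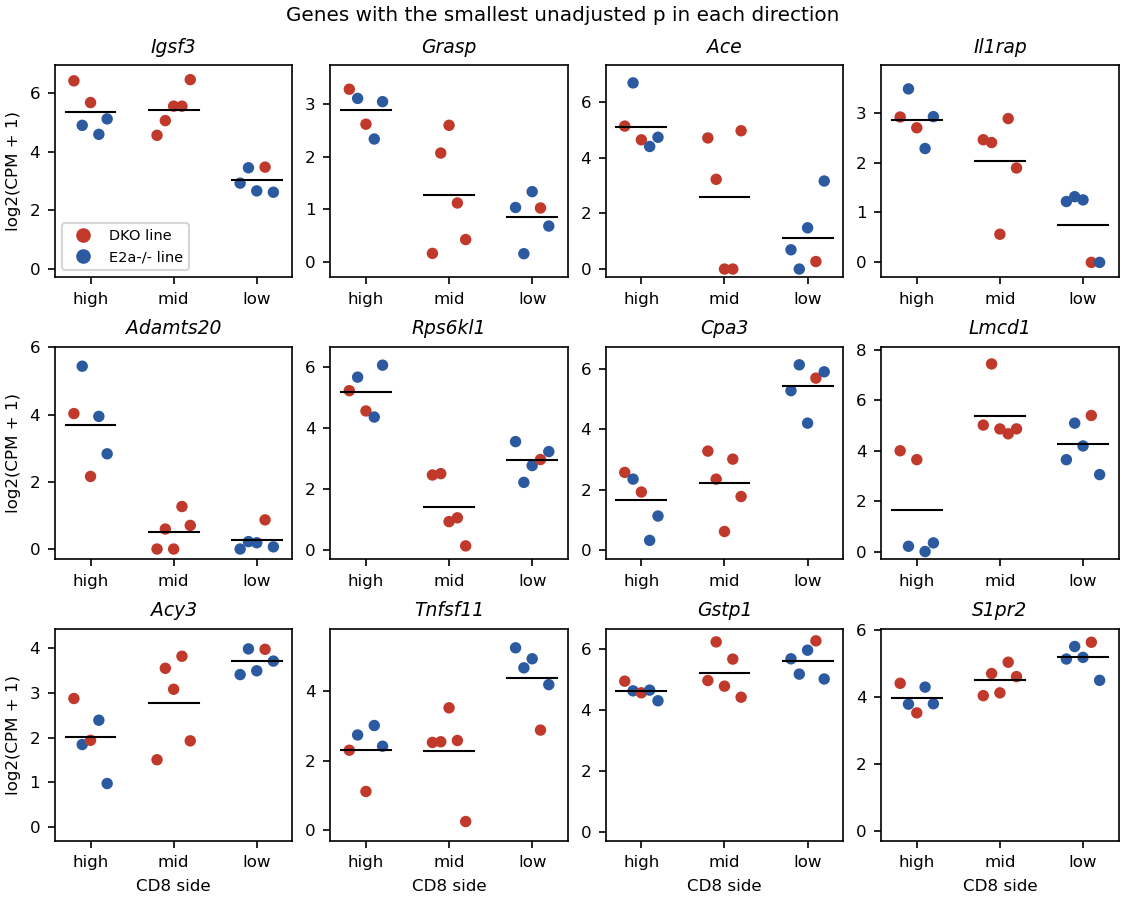
log2(CPM + 1) of the 12 genes with the smallest unadjusted p, 6 in each direction, in CD8-high, middle and CD8-low lines (5 each), 1 point per line, with the mean as a bar. *Igsf3* is as high in the middle lines as in CD8-high lines, while *Adamts20* and *Rps6kl1* are high in CD8-high lines and low in the others.

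Among 21 coreceptor genes and regulators, all listed, 0 were called, 2 had an unadjusted p under 0.05 with more mRNA in CD8-high lines (*Runx3* and *Tox2*), 0 with less, and the median log2 fold change was 0.14 against -0.01 over all genes. Each list count here and below is read beside the share over all 12543 genes, of which 6049 (48.2%) had positive values, 2.85% had an unadjusted p under 0.05 with more mRNA in CD8-high lines and 3.27% with less. *Runx3*, the RUNX factor of CD8 lineage cells, was at 9.15 in DKOTu3, 105 in SKO115.2, 9.29 in DKO102.4, 2.11 in SKO137.1 and 63.4 in SKO163.5 CPM in CD8-high lines. It was at 0.0948 in SKO186.5, 0.386 in SKO132, 0.207 in SKO156.6, 2.27 in DKO79.9 and 1.52 in SKO95 CPM in CD8-low lines. The close pair SKO115.2 and SKO163.5 had the highest values, and SKO137.1 lay below DKO79.9, so the sides overlapped. The log2 fold change was 3.51 (SE 0.95, unadjusted p = 0.00487, adjusted p = 0.686), and 2.73 with each close pair of lines averaged. *Tox2*, an HMG-box factor, was at 252 and 147 CPM in the same pair and at no more than 4.42 CPM in the other 8 lines compared.

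*Zbtb7b* was near 0 in most lines (0.104 to 0.587 CPM in CD8-high lines), but at 16.3 CPM in the library labelled SKO132 and 2.09 CPM in SKO186.5. *Runx1*, the RUNX factor of immature thymocytes, was at 274 to 333 CPM against 159 to 292 CPM, a log2 fold change of 0.31 (SE 0.17, unadjusted p = 0.0977, adjusted p = 0.796). *Gata3*, needed for CD4 lineage cells, was at 144 to 233 against 150.2 to 343 CPM (-0.49, unadjusted p = 0.0572). *Satb1*, a chromatin organizer that acts at the coreceptor genes, was at 153 to 885 against 374 to 884 CPM (-0.71), *Bcl11b*, required for T-lineage commitment, at 331 to 552 against 248 to 458 CPM (0.26), and *Tox*, needed for the CD4 lineage, at 15.5 to 105 against 18.4 to 111 CPM. These ranges all overlapped. *Ikzf1*, which encodes Ikaros and is a tumour suppressor in T cell leukemia, was nearly absent from 1 line on each side, 2.98 CPM in DKO102.4 and 3.86 CPM in SKO132, and at 252 to 847 CPM in the other 8.

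Of 19 genes of the double-positive stage, all listed, 0 were called, 14 had positive values (48.2% over all genes), 3 had an unadjusted p under 0.05, all higher and among them *Tcf12* and *Ets2*, 0 were lower, and the median was 0.54. The genes of this list named here overlapped between the sides. The recombinase genes *Rag1* and *Rag2* were at 206 to 1910.4 and 23.4 to 68.8 CPM in CD8-high lines and at 224 to 1594 and 0.165 to 51.6 CPM in CD8-low lines. *Ptcra*, which encodes the pre-T cell receptor chain, was at 8.91 to 104 against 0.165 to 101 CPM, and *Dntt*, the terminal transferase, at 372 to 900.3 against 107 to 1995 CPM. Within the CD8-low side these genes varied widely, with *Rag2* at 0.165 and *Ptcra* at 0.165 CPM in SKO132 and *Ptcra* at 101 and *Dntt* at 1995 CPM in SKO95. In E2a-/- lines alone with SKO132 left out, *Rag1*, *Rag2*, *Ptcra* and *Dntt* had log2 fold changes of -1.02, -0.51, -0.27 and -0.50. *Cd4*, also of this list, had -0.80 there, so the count of positive values depends on the lines used. *Tcf12*, the gene of the E protein HEB, was at 763 to 998 against 485 to 827 CPM, a log2 fold change of 0.37 (SE 0.16, unadjusted p = 0.0483, adjusted p = 0.796). Its lowest value was in SKO132, and limma on E2a-/- lines alone without that line gave 0.19 (unadjusted p = 0.226). *Ets2*, an ETS factor, was at 128 to 277 against 55.8 to 187.1 CPM (1.01, unadjusted p = 0.0127). The chemokine receptor gene *Ccr9* was at 703 and 447 CPM in the close CD8-high pair and at 14.4 to 69.5 CPM in the other 3 CD8-high lines, against 3.36 to 255 CPM in CD8-low lines. Its log2 fold change in E2a-/- lines alone with SKO132 left out was 2.20.

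Of 20 double-negative and progenitor genes only 8 were listed, and *Lyl1*, *Lmo2*, *Spi1* and *Mef2c* were not among them. 0 were called, 2 had an unadjusted p under 0.05 (*Cd44* and *Lmo1*, both higher), and the median was 0.81. *Lmo1*, a LIM-domain oncogene of T cell leukemia, was at 11.8 CPM in SKO115.2 and 11.6 CPM in SKO163.5 and at 0 in the other 8 lines compared and in the middle lines. *Cd44* reached at most 1.24 CPM in any of the 10 lines. *Il2ra*, the IL-2 receptor gene of double-negative cells, was at 8.65 to 1636 CPM in CD8-high and 0.827 to 678 CPM in CD8-low lines, and *Il7r* at 0.538 to 262 and 0 to 148 CPM. Both sides thus held lines with these cytokine receptors and lines nearly without them. The log2 fold changes of *Il2ra* and *Il7r* were 1.01 and 1.06 with all 10 lines. In E2a-/- lines alone with SKO132 left out they were -1.01 and -1.83, while *Lmo1* stayed positive.

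**Figure D3:**
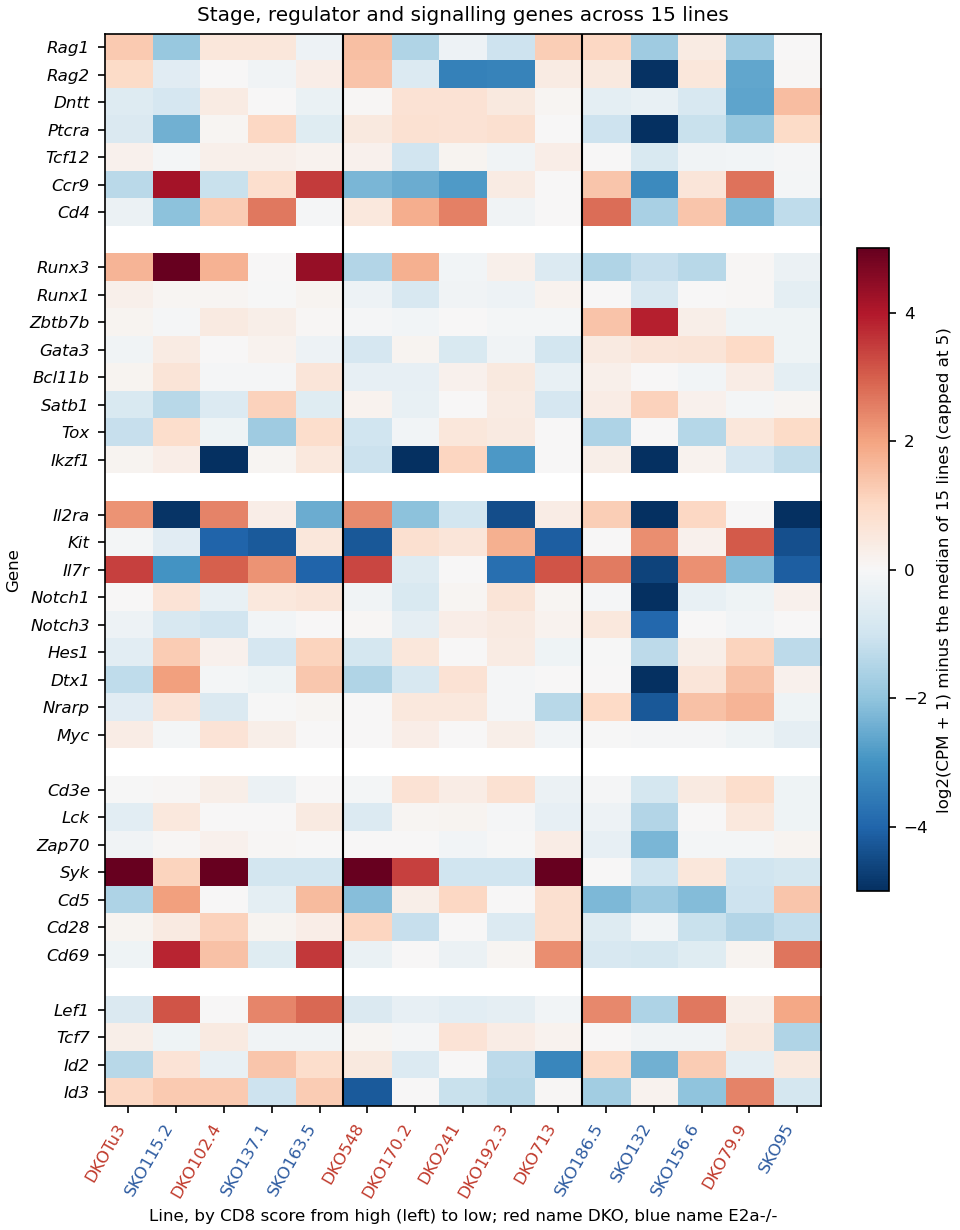
log2(CPM + 1) minus the median of the 15 lines for 35 genes (rows) in lines ordered by CD8 score (columns), with black lines between the sides and a colour scale capped at 5. *Runx3* is mostly above the median at the left, whereas *Rag2*, *Ptcra*, *Il2ra*, *Kit* and *Il7r* vary within each side, and SKO132 is low for *Notch1*, *Notch3* and *Dtx1*.

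Notch signalling, which early T cell development requires, showed no call among 12 of 13 listed genes. 1 gene had an unadjusted p under 0.05 with more mRNA in CD8-high lines, 0 with less, and the median was 0.42. That gene was *Myc*, at 329 to 565 CPM against 260.2 to 343 CPM, a log2 fold change of 0.36 (SE 0.14, unadjusted p = 0.0318, adjusted p = 0.796). *Notch1* was at 1089 to 2266 CPM in CD8-high lines, and at 1091 to 1639 CPM in 4 CD8-low lines, but at 31.3 CPM in SKO132. The targets *Dtx1* and *Nrarp* were at 0.221 and 0 CPM in SKO132 as well. In the other 4 CD8-low lines *Dtx1* was at 212 to 579 CPM, within the 86.6 to 866 CPM of CD8-high lines. *Notch3* (256 to 509 against 32.2 to 728 CPM) and the target *Hes1* (29.3 to 129 against 20.5 to 117 CPM) overlapped. In E2a-/- lines alone the log2 fold changes of *Notch1* and *Notch3* were 2.02 and 0.54. With SKO132 also left out they were 0.68 and -0.49.

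For the T cell receptor complex and its proximal signalling, 24 of 26 genes were listed, 0 were called, 22 had positive values (48.2% over all genes), 4 had an unadjusted p under 0.05, all higher in CD8-high lines (2.85% over all genes), and the median was 0.47. These 4 were *Cd28*, *Ptpn22*, *Cd2* and *Cd6*. *Cd28*, the main costimulatory receptor of T cells, was at 145 in DKOTu3, 178 in SKO115.2, 292 in DKO102.4, 145 in SKO137.1 and 166 in SKO163.5 CPM in CD8-high lines. It was at 82.6 in SKO186.5, 118 in SKO132, 59.2 in SKO156.6, 46.8 in DKO79.9 and 56.0 in SKO95 CPM in CD8-low lines. It was the 1 gene of the list whose sides did not overlap. Over all 12543 genes, 0.510% had every CD8-high line above every CD8-low line. The middle lines lay on both levels of *Cd28*, at 57.9 to 274 CPM. Its log2 fold change was 1.38 (SE 0.29, unadjusted p = 0.00103, adjusted p = 0.450), with 1.09 in E2a-/- lines alone (unadjusted p = 0.00448), 1.31 with SKO132 also left out (unadjusted p = 3.43e-04) and 1.497 in DKO lines alone (unadjusted p = 0.102). *Cd28*, *Ptpn22*, *Cd2* and *Cd6* were named after their values were seen. The fits of E2a-/- lines alone, here and below, reuse lines of the comparison and are no separate support.

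*Cd2*, an adhesion receptor, was at 203, 105 and 63.4 CPM in the E2a-/- CD8-high lines, above all 4 E2a-/- CD8-low lines (0.496 to 22.7 CPM), and at 3.68 and 5.82 CPM in the DKO CD8-high lines. *Cd6*, a receptor of the same kind, was at 10.8 to 123 CPM in those E2a-/- CD8-high lines against 0.276 to 3.55 CPM in E2a-/- CD8-low lines, and at 14.2 CPM in the DKO CD8-low line. In E2a-/- lines alone the log2 fold changes were 3.68 and 4.65 (unadjusted p = 0.00610 and 0.00110), with SKO132 also left out 2.84 and 4.60 (unadjusted p = 0.00117 and 0.00403), and in DKO lines alone -0.20 and -2.36 (unadjusted p = 0.741 and 0.162). A difference between genotypes in the relation to CD8 was tested over all 15 lines and all genes as the interaction of CD8 score and genotype: 0 genes were called by limma, 660 had an unadjusted p under 0.05, and the smallest adjusted p was 0.913.

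The invariant chain gene *Cd3e* (274 to 419 against 184 to 618 CPM), the kinase that docks on CD8, *Lck* (597 to 1258 against 319.5 to 1261 CPM), and *Zap70* (159.8 to 207 against 35.9 to 196 CPM) overlapped. *Syk*, the kinase related to ZAP70, was at 306 and 160.2 CPM in the DKO CD8-high lines and at no more than 3.37 CPM in the other 8 lines compared. The DKO line on the low side, DKO79.9, had 0 CPM, and the middle lines, all DKO, spread from 0 to 336 CPM. Its log2 fold change was 6.75 in DKO lines alone (unadjusted p = 0.0483) and 0.09 in E2a-/- lines alone (unadjusted p = 0.886). *Cd5*, which reports receptor signal strength, and the activation marker *Cd69* were highest in SKO115.2 (21.2 and 24.5 CPM), with 13.2 and 10.7 CPM in SKO95 on the low side.

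Among E proteins, Id factors and TCF/LEF factors, 13 of 14 were listed, 0 were called, 2 had an unadjusted p under 0.05 with more mRNA in CD8-high lines (*Tcf12*, given above, and *Axin2*) and 1 with less (*Tle4*), and the median was 0.51. *Axin2*, a target of β-catenin with TCF/LEF factors, was at 63.8 to 259 against 19.9 to 76.9 CPM, a log2 fold change of 1.22 (SE 0.40, unadjusted p = 0.0129, adjusted p = 0.796), with its highest values, 237 and 259 CPM, in the DKO CD8-high lines. *Tle4*, a Groucho corepressor, was at 0.0489 to 1.16 CPM in CD8-high lines and at 10.1 to 61.3 CPM in 4 CD8-low lines, but at 0 in SKO95. *Tcf7*, the gene of TCF1, was at 1972 to 3133 against 799.8 to 3228 CPM, *Id2* at 11.5 to 83.5 against 5.07 to 77.6 CPM and *Id3* at 14.1 to 75.8 against 6.56 to 172 CPM. The E protein inhibitors *Id2* and *Id3* therefore did not separate the sides. *Lef1*, which the DKO genotype targets, was at 933 to 1558 CPM in E2a-/- CD8-high lines and at 668 to 1094 CPM in 3 of the 4 E2a-/- CD8-low lines.

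The 18 maturation and egress genes, all listed, had the highest median of the T cell lists, 0.86, with 13 positive (48.2% over all genes) and 0 called, and with 1 gene at an unadjusted p under 0.05 in each direction. *Foxo1*, which drives egress and *Il7r* expression, was at 54.5 in DKOTu3, 94.3 in SKO115.2, 47.2 in DKO102.4, 48.1 in SKO137.1 and 58.4 in SKO163.5 CPM in CD8-high and at 41.3 in SKO186.5, 42.9 in SKO132, 46.1 in SKO156.6, 32.6 in DKO79.9 and 38.3 in SKO95 CPM in CD8-low lines. The sides did not overlap, but the gap was small, and the log2 fold change was 0.61 (SE 0.17, unadjusted p = 0.00683, adjusted p = 0.748). Its targets *Klf2*, *S1pr1* and *Il7r* overlapped: *Klf2* was at 0.311 to 77.7 against 0.237 to 11.7 CPM and *S1pr1* at 0 to 36.8 against 0.0552 to 3.73 CPM, each with its highest value in SKO115.2. *Ly6a*, the surface protein Sca-1, had a negative log2 fold change (0.674 to 37.4 against 10.1 to 205 CPM, -2.68, SE 0.98, unadjusted p = 0.0229).

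Of 22 cytotoxic and CD8 effector genes only 12 were listed, and *Eomes*, *Gzmb*, *Ifng* and *Klrd1* were not. 0 were called, 1 had an unadjusted p under 0.05 with more mRNA in CD8-high lines (*Runx3*), 2 with less (*Gzma* and *Cxcr3*), and the median was 0.02. *Gzma*, a granzyme, was abundant on both sides, at 219 to 467 CPM in CD8-high and 311 to 1279.9 CPM in CD8-low lines (-1.10). *Prf1*, which encodes perforin, reached 8.19 CPM in SKO115.2 and was at no more than 1.51 CPM in the other lines compared. Of 12 CD4 helper genes 8 were listed, with 0 at an unadjusted p under 0.05 and a median of 0.34. MHC class I genes (12 of 13 listed) had 0 at an unadjusted p under 0.05 and a median of -0.07, with *B2m* at 250.9 to 585 against 189 to 531 CPM and *H2-K1* at 26.8 to 91.4 against 10.8 to 168 CPM.

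Of 20 cell cycle genes, all listed, 0 were called, 2 had an unadjusted p under 0.05, both higher in CD8-high lines, and the median was 0.07. These were *Cdkn1b*, the inhibitor p27 (69.2 to 118 against 34.8 to 92.4 CPM, 0.83), and *Top2a*, a topoisomerase of dividing cells (1106 to 1744 against 930.4 to 1453 CPM, 0.39). *Mki67* was at 743 to 1326 against 735 to 1448 CPM. The lists of other cell types had 0 called genes and, of the listed members, 1 at an unadjusted p under 0.05, *Nfil3*, at 1.18 to 15.4 against 0.412 to 4.84 CPM.

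**Figure D4:**
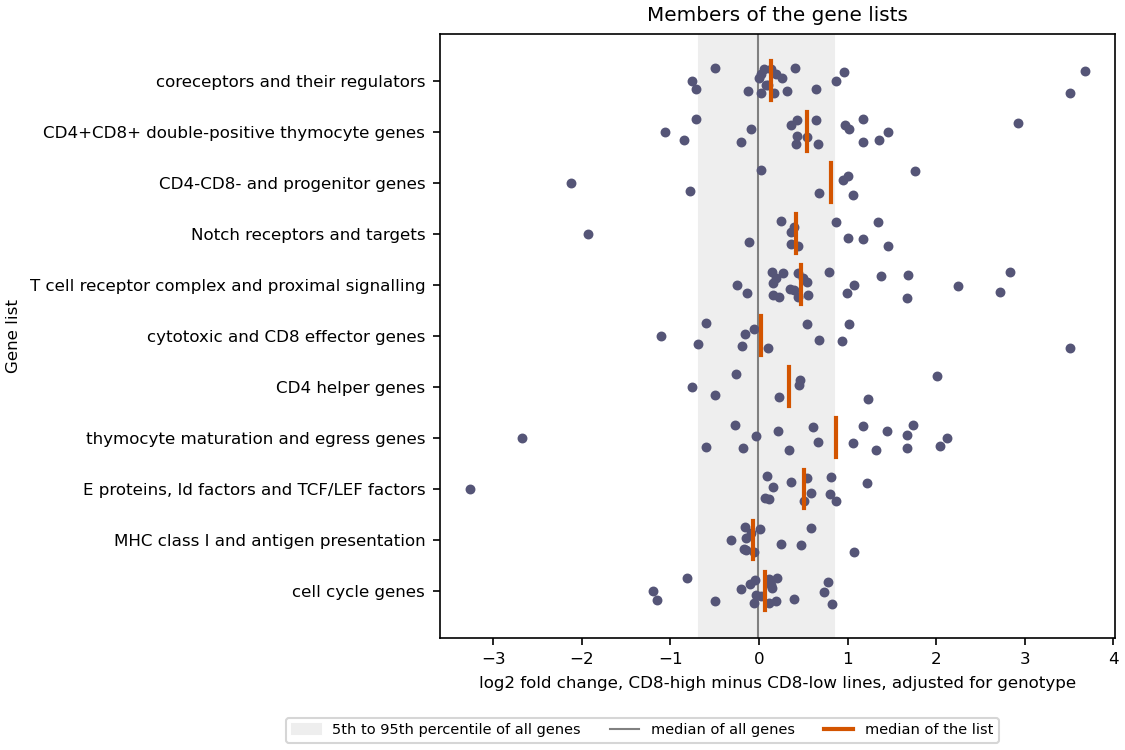
log2 fold change of each listed member (points) of 11 gene lists (rows), with the list median as an orange bar, the median of all genes as a grey line and the middle range of all genes shaded. Most medians lie right of the all-gene median of -0.01, from -0.07 for MHC class I to 0.86 for maturation genes, and no point is a call.

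Over all 15 lines, the genes whose log2(CPM + 1) followed the CD8 score most closely were *Il1rap* (Spearman 0.831), *Tubb3* (0.814), *Foxb1* (0.804), *Mcoln2* (0.793) and *Gm10052* (0.779), out of 11565 genes averaging 1 CPM or more. Those that ran most against it were *Map3k10* (-0.829), *Slc25a42* (-0.807), *Zfp184* (-0.796), *Ece1* (-0.793) and *Bhlhb9* (-0.779). *Tubb3*, a neuronal tubulin gene, was at 33.5 in DKOTu3, 28.1 in SKO115.2, 19.1 in DKO102.4, 11.9 in SKO137.1 and 28.6 in SKO163.5 CPM in CD8-high lines. It was at 3.22 in SKO186.5, 7.56 in SKO132, 2.62 in SKO156.6, 1.44 in DKO79.9 and 0.461 in SKO95 CPM in CD8-low lines and at 0.637 to 7.59 CPM in the middle lines, so it did not overlap between the sides. The mucolipin channel gene *Mcoln2* was at 5.35 to 29.9 against 0 to 3.70 CPM, and the forkhead gene *Foxb1* at 17.9 to 65.9 against 0 to 11.6 CPM. All these genes were chosen by their correlation with the score that set the sides. Separation of the sides was therefore favoured by the choice and is no separate result. The genes with negative correlations differed little in size: *Map3k10*, a kinase, was at 15.03 to 22.9 CPM in CD8-high and 25.3 to 33.6 CPM in CD8-low lines. *Il5ra*, the interleukin-5 receptor gene, chosen after seeing its values, was at 1.04 to 7.23 against 0.138 to 0.553 CPM and did not overlap (1.86, adjusted p = 0.404).

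The table places *Cd8a* on chromosome 6 at 71323421 to 71329165 and *Cd8b1* at 71272830 to 71287471, both on the + strand, in coordinates of an assembly that is not stated there. Of the 11 other listed genes within 500 kb, 0 were called, 2 had an unadjusted p under 0.05, 9 had positive values (48.2% over all genes), and the median log2 fold change was 0.24. *Rmnd5a*, the next gene after *Cd8a*, was at 282 to 411 CPM in CD8-high and 208 to 314 CPM in CD8-low lines, a log2 fold change of 0.48 (SE 0.13, unadjusted p = 0.00483, adjusted p = 0.686). *Smyd1*, a muscle methyltransferase gene whose start faces that of *Cd8b1* on the opposite strand, was at 0.829 to 4.84 against 0.0922 to 0.824 CPM (0.83, unadjusted p = 0.0170). Its sides did not overlap, but the gap from 0.824 to 0.829 CPM was smaller than 1 read, worth 0.0461 CPM or more. Its level was low, and without stated strand-specific counting its reads cannot be told apart from reads that start ahead of *Cd8b1*. For the level of chromosome 6, log2(CPM + 1) of 452 genes averaging 5 CPM or more was centred on each gene's median, and the median of a line was taken relative to that of all autosomal genes. It was 0.0865 ± 0.141 (SD, n = 5) in CD8-high and -0.0221 ± 0.0153 (SD, n = 5) in CD8-low lines, 0.109 apart (exact permutation test, two-sided p = 0.0556, smallest possible 0.00794). The CD8-high lines SKO163.5 (0.303) and DKOTu3 (0.158) stood above 0 and the other 3 did not, and DKO548 in the middle was at 0.227. Without SKO163.5 the difference was 0.0545. Its part in the *Cd8a* and *Cd8b1* levels was not tested.

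**Figure D5:**
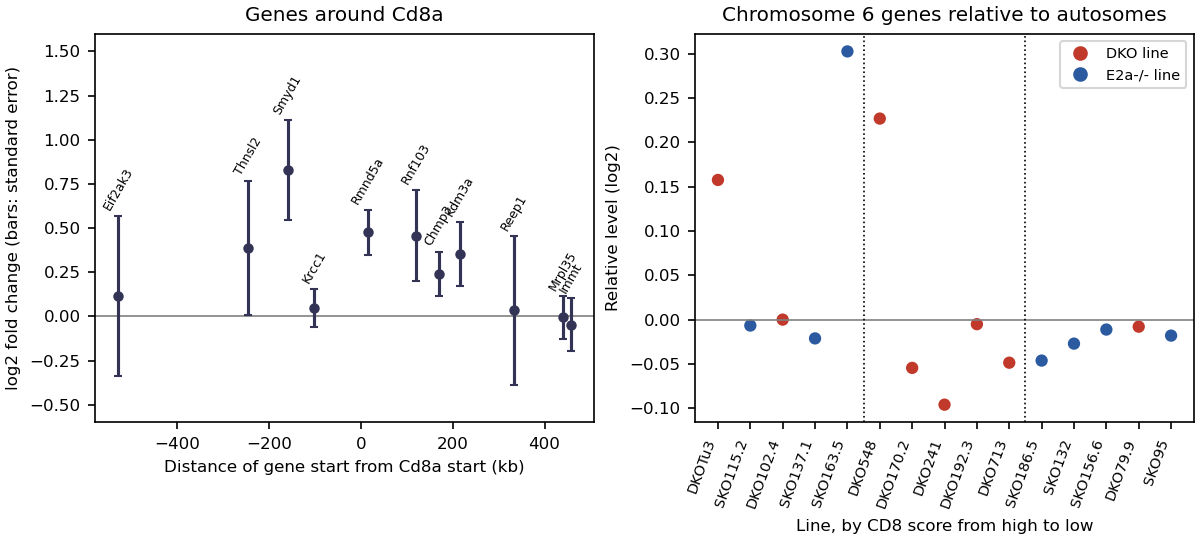
Left, log2 fold change (CD8-high minus CD8-low, with standard error) of the 11 genes around *Cd8a* against the distance of their start from that of *Cd8a* in kb. Right, the level of chromosome 6 relative to autosomes (log2) in 15 lines ordered by CD8 score, where SKO163.5, DKO548 and DKOTu3 lie at 0.303, 0.227 and 0.158 and the other lines near or below 0.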

How the data were processed

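RNA-sequencing of 15 mouse T leukemia lines was analysed, with genotypes taken from the sample labels. Reads were trimmed with Trimmomatic (version 0.33), aligned with TopHat2 (version 2.1.0) and counted per gene with HTSeq (version 0.6.1), as the methods and the submitters' processing notes state. The authors then deposited CPM values scaled with edgeR, which equal whole reads divided by the reads assigned to genes in the line, for 12545 genes. How these genes were selected, and whether counting used strand, is not given in the sources used here. The methods name mm10, but the table's coordinates are of another assembly and are given as listed. Dividing by the smallest nonzero CPM of a line gave whole reads (within 0.01) for 100% of values, and the count tests ran on those.

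The sides, the members and the gene lists were chosen with earlier results of these data known. Values were tested as log2(CPM + 1) with limma (version 3.58.1, R version 4.3.3), with a trend of the variance, genotype as covariate and 2-sided tests, adjusted by Benjamini-Hochberg over 12543 genes at 0.05. Fold changes on this scale are understated for low genes. Each line is treated as a replicate, and p-values measure the spread between these lines. The labels give no batch, so any batch is part of that spread. The 2 close pairs count as separate lines, which may understate the spread if the lines of a pair come from 1 leukemia. Named genes were *Cd8a*, *Cd8b1*, up to 12 called genes per direction, filled to 6 by the smallest p where fewer passed, a fixed set of T cell genes, genes within 500 kb of *Cd8a* or *Cd8b1*, and the 5 highest and 5 lowest Spearman correlations with the CD8 score. Further members of the gene lists with an unadjusted p under 0.05, and *Il5ra*, were named after their values were seen, as were the genes that only an alternative called. Lists were described by counts and medians. Results for some genes examined are not reported here. The sides within DKO lines, and the interaction of side and genotype, were not fitted because the low side holds only 1 DKO line. The CD8 score was used as a continuous covariate in their place.

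Alternatives were pseudocounts of 0.1 and 2, a mean of at least 1 CPM, no trend, array weights, no genotype, E2a-/- lines alone, median-of-ratios and upper-quartile scaling, 4 or 6 lines a side, the score as a continuous covariate, ranking by 1 gene, each line left out, a threshold of 0.01 on the adjusted p or of 1 on the log2 fold change, the close pair SKO156.6 and SKO186.5 averaged, edgeR (version 4.0.16) and DESeq2 (version 1.42.0). The DKO lines alone, both close pairs averaged, SKO132 and DKO79.9 left out together, E2a-/- lines alone without SKO132, and the interaction over 15 lines were added after seeing the data. All tools were tested on simulated counts for 12543 genes. The libraries carry no molecular identifiers, so depth sets counting error only, and 3 reads correspond to 0.138 CPM in SKO95 and 0.618 CPM in DKO79.9.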

Additional observations from a re-analysis of the deposited data

Results flagged for a closer look

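A value was singled out where 1 line stood far from the other 4 of its side (Dixon's criterion). Among 189 groups of 5 lines, 18 values stood apart, and chance singles out about 1 in 20 groups. *Inpp4b*, *Cth* and *Slc36a4* were named because an alternative that left out or replaced 1 line called them, so their values here restate how they were chosen, and the 18 cannot be read against chance. SKO132 held 11 of the 18. Among CD8-low lines SKO132 had 3.86 CPM of *Ikzf1* (252 to 724 in the others), 31.3 of *Notch1* (1091 to 1639), 32.2 of *Notch3* (459.7 to 728), 0.221 of *Dtx1* (212 to 579), 35.9 of *Zap70* (135 to 196), 485 of *Tcf12* (725 to 827), 189 of *B2m* (455 to 531), 24.05 of *Ptpn22* (51.5 to 60.9) and 0 of *Foxb1* (6.39 to 11.6). SKO132 lay above the other CD8-low lines for *Cth* (19.1 CPM) and *Slc36a4* (14.6 CPM). Further values on the low side were 10.7 CPM of *Cd69* in SKO95, 0.824 CPM of *Adamts20* in DKO79.9 and 0.206 CPM of *Inpp4b* in DKO79.9, where 1 read is worth 0.206 CPM.

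On the high side, *Ikzf1* was at 2.98 CPM in DKO102.4 (635 to 847 in the others), *Tcf12* at 763 CPM in SKO115.2 (942 to 998), *Id3* at 14.1 CPM in SKO137.1 (61.2 to 75.8) and *Inpp4b* at 0 in SKO137.1 (3.47 to 5.75). Without SKO132, limma called 0 genes and 818 had an unadjusted p under 0.05. With SKO132 and DKO79.9 both left out it called 0, with 992 at an unadjusted p under 0.05.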

How the results depend on the processing

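With limma, 0 genes were called under both pseudocounts, the CPM minimum, no trend, no genotype, E2a-/- lines alone with or without SKO132, both scalings, 4 or 6 lines a side, ranking by *Cd8b1* and either averaging of close pairs. Array weights called 1 gene higher (*Igsf3*) and 1 lower (*Lmcd1*). The continuous score over 15 lines called 1 higher (*Tubb3*), ranking by *Cd8a* alone called 3 higher (*Cth*, *Slc36a4* and *Tubb3*), and DESeq2 78 higher and 91 lower. Leaving out 1 line gave 0 to 2 higher, the 2 (*Inpp4b* and *Spats2l*) without SKO137.1, and 0 lower. Genes at an unadjusted p under 0.05 numbered 768, and 1716 with array weights, 1176 with DESeq2, 433 with 4 lines a side, 439 with both close pairs averaged, 426 in DKO lines alone, and 473 (without SKO163.5) to 1084 (without SKO137.1) with 1 line left out. The causes were not tested.

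With 1 line left out, the chromosome 6 difference was 0.0545 (without SKO163.5) to 0.136 (without SKO137.1), with exact permutation p-values from 0.00794 to 0.222. It passed 0.05 in the exact permutation test without SKO115.2 (difference 0.132), DKO102.4 (difference 0.130) or SKO137.1. Over genes averaging 1 CPM or more, the difference was 0.0994 (exact permutation test, p = 0.0873). With genes within 5 Mb of *Cd8a* left out, it was 0.106 (exact permutation test, p = 0.119). These exact permutation tests were not adjusted for genotype. Of 2975 comparisons of 93 named genes with 32 settings, 173 had the other sign, in 42 genes. No paired analysis was made because the labels give no pairing of lines between the sides. The shallowest line, DKO79.9, is the 1 DKO line on the low side, so depth and genotype cannot be told apart there.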

Other observations

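Among genes that only an alternative called, *Inpp4b*, a phosphoinositide phosphatase gene, was at 3.47 to 5.75 CPM in 4 CD8-high lines and at 0 in SKO137.1, against 0 to 0.206 CPM in CD8-low lines. *Spats2l* was at 9.63 to 35.0 CPM in the same 4 lines, at 0.435 CPM in SKO137.1 and at 0 to 0.441 CPM in CD8-low lines. In the middle lines *Spats2l* was at 59.6 CPM in DKO241, 55.6 CPM in DKO713 and 0 in the other 3.

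*Cth*, an enzyme that makes cysteine, was at 7.41 to 23.5 CPM in CD8-high lines. It was at 0.618 to 2.35 CPM in 4 CD8-low lines and at 19.1 CPM in SKO132, which has the most *Cd8a* and the second lowest *Cd8b1* of the CD8-low lines. *Slc36a4*, an amino acid transporter gene, was at 6.02 to 21.6 CPM in CD8-high lines, at 14.6 CPM in SKO132 and at 0 to 1.14 CPM in the other CD8-low lines.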
